A study of Mus musculus with 21 samples.

Results

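The genes described here are 20 cytoplasmic aminoacyl-tRNA synthetase genes and 15 genes of the ATF4 response (Atf4, Atf5 and 13 of their textbook target genes), measured by RNA sequencing in mouse hematopoietic stem cells (HSCs). The 35 members were taken by gene symbol from the 21000 genes of the deposited count table, and Mars was found under its current symbol, Mars1. The design compares HSCs of mice given 5-fluorouracil (5-FU), an antimetabolite that kills dividing marrow cells and drives HSCs into cycle, with those of mice given PBS, and adds HSCs of old mice. HSCs from wild-type mice were sorted as lineage-negative marrow cells that carried Sca-1, c-Kit and CD150 but lacked CD48, 3000 to 3500 cells per library, and the study's methods also leave out Flt3-positive cells in C57BL/6 mice. The mice were 10 weeks old at the first intraperitoneal injection, and 5-FU, at 150 mg/kg, or PBS was given either once or 3 times with 21 days between injections. HSCs were isolated on day 6 (5 days after the last injection) from PBS-treated and 5-FU-treated mice, and on day 21 from 5-FU-treated mice. A further group came from untreated mice aged 2 years. The 21 libraries thus fell into 7 groups of 3, and the libraries of a group came from separate experiments. On day 6 after 5-FU the sorting gate was widened to cells with dim c-Kit and the Mac-1 antibody was left out, so the gate cannot be told apart from treatment or time in any comparison that uses the day 6 5-FU libraries, those of day 21 with day 6 included. There was no PBS group at day 21, and the day 21 HSCs were compared with the day 6 groups.

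Aminoacyl-tRNA synthetases join each amino acid to its tRNA and so supply the ribosome with its substrates. Several of them sit together with scaffold proteins in the cytoplasmic multisynthetase complex. ATF4 is a transcription factor whose own translation rises when eIF2alpha is phosphorylated by 1 of the stress kinases, and it induces synthetases, amino acid transporters and the enzymes that make serine, asparagine and folate-bound carbon units. Growth signals through mTORC1 also raise ATF4 protein. HSCs are known for a low rate of protein synthesis at rest. ATF4 control acts largely on translation, which mRNA levels do not report.

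Libraries held 22184885 to 38649033 counts (median 26962256), and no library stood apart from its group (correlations of log CPM within groups were 0.951 to 0.968). The 8 HSC markers were all detected in every library, and their summed level was 3901 to 4299 CPM in the PBS libraries after 1 injection and 3732 to 4096 CPM after 3. It was 3088 to 3237 CPM on day 6 after 1 administration of 5-FU and 2701 to 2787 CPM after 3, with Kit lower and Mecom higher in both comparisons. The summed level of the 6 cycling-cell markers was 488 to 520 CPM against 682 to 748 CPM after 1 administration, and 425 to 495 CPM against 782 to 910 CPM after 3. Of these 6 genes, 3 rose after 1 administration (11.5% of all genes did) and 5 after 3 (9.84%), and none fell. At day 21 their sum was 347 to 405 CPM after 1 administration and 366 to 385 CPM after 3. The 9 neutrophil and monocyte markers summed to at most 120 CPM in any library, with Elane at most 0.996 CPM and Ctsg at most 0.237 CPM. Lyz2 was at 30.6 to 47.1 CPM, Prtn3 at 13.1 to 26.7 CPM and Itgam, which encodes Mac-1, at 4.96 to 49.1 CPM. The 6 lymphoid markers summed to at most 5.17 CPM, and Cd8a was at 0 in all 21 libraries. The 5 erythroid markers summed to 24.4 to 39.8 CPM with PBS and 51.0 to 57.0 CPM with 5-FU after 1 administration, and to 31.1 to 46.0 CPM and 33.9 to 48.4 CPM after 3. Among them Hbb-bt was higher after 5-FU in both comparisons, Klf1 and Gata1 were lower after 1 and Car1 was lower after 3. The 4 megakaryocyte markers summed to 150 to 182 CPM and 104 to 108 CPM after 1, and to 156 to 161 CPM and 136 to 145 CPM after 3. Cd48 was higher after 5-FU (log2 fold change 0.82 after 1 and 1.90 after 3) and Flt3 was lower. Cycling and HSC markers thus moved with 5-FU on day 6 beside the members described below. Their part in the members' changes was not tested, and in these bulk libraries fewer cells of a type and less RNA per cell cannot be told apart.

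Levels between genes were compared as CPM per kilobase of the longest annotated transcript. In PBS-treated HSCs after 1 injection the lysine enzyme Kars was the highest synthetase at 235 ± 18.6 (SD, n = 3) CPM per kb, followed by the asparagine enzyme Nars at 188 ± 10.2 and the tryptophan enzyme Wars at 80.8 ± 3.39. The lowest synthetases on this scale were the alanine enzyme Aars at 6.26 ± 0.144 and the threonine enzyme Tars at 7.49 ± 0.183 CPM per kb. Among the ATF4 genes, the mitochondrial serine hydroxymethyltransferase Shmt2 was the highest at 71.6 ± 2.75 CPM per kb. Slc3a2, the heavy chain shared by several amino acid transporters, stood at 41.8 ± 3.11 and Atf4 itself at 41.8 ± 4.41 CPM per kb, which did not differ beyond their spread. Atf5, a relative of ATF4, and Chac1, a glutathione-degrading enzyme, were close to the limit of detection, with 2 to 16 and 0 to 31 raw counts per library. Ddit4, an inhibitor of mTORC1, had 36 to 104 counts per library, and each of the other 32 members had at least 111 counts in every library. Some members share exonic bases with a neighbour on the other strand, and the library kit does not mark strand: Mars1 and Ddit3 overlap each other at their ends (1.99% of the exonic bases of Mars1, and 4.73% of those of Ddit3 with Mars1 and a predicted gene together), Hars overlaps Hars2 (7.97%), Farsb overlaps Sgpp2 (9.47%) and Psph overlaps Cct6a (10.4%). Aars shares 14.3% of its exonic bases with Exosc6 on the same strand. Reads in these stretches cannot be assigned with certainty.

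ATF4 binds, as a dimer with a C/EBP protein, to a composite element that often reads TGATGNAA. This letter string was searched on both strands in the RefSeq promoter windows (GRCm38.p6, 250 bases before to 50 after each gene start). A window was at hand for 27 of the 35 members, and none was at hand for Cars, Hars, Lars, Nars, Rars, Vars, Wars and Slc7a5. The string was found in 8 of these 27 members (29.6%), against 1219 of 27025 genes (4.51%). It was found in 5 of 13 synthetase genes and in 3 of 14 ATF4 genes. The variant TGATGCAA, which is part of the same search, was found in 16.7% of 30 member windows and in 0.895% of all 32851 windows. A match is a description of the letters, not a binding site or a cause, and an absent match says only that these letters are not in this window. For each of these 8 members 1 match is shown, because the string is what these 8 windows share and the other member windows lack. Each is read on the strand that holds the string, with 10 bases on either side and the matching letters in capitals.
Aars, chr8:111033841-111033868, minus strand: cagagcgctcTGATGAAAagtgacccgc
Gars, chr6:55037961-55037988, minus strand: gcccggtgcaTGATGAAAtagcgcagcc
Iars, chr13:49682127-49682154, minus strand: cgtctggaggTGATGCAAtactgacagt
Tars, chr15:11399656-11399683, plus strand: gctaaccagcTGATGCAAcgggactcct
Yars, chr4:129189896-129189923, plus strand: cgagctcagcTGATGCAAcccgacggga
Asns, chr6:7693215-7693242, minus strand: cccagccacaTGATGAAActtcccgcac
Chac1, chr2:119351039-119351066, minus strand: ctggcaggagTGATGCAAcggcagggaa
Trib3, chr2:152344029-152344056, plus strand: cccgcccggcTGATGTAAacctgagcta

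The matches of Asns, Gars and Tars began 23, 30 and 15 bases before the gene start, and that of Chac1 193 bases before it. Those of Yars, Iars, Trib3 and Aars lay 3, 7, 14 and 9 bases after the start, in the first exon. Of the members with a match, Aars, Gars and Tars rose on day 6 after 1 and after 3 administrations, Yars rose after 1 and Iars after 3. Trib3 fell after 3, and Asns and Chac1 were not called in either comparison. Kars, Shmt2, Psat1 and Mthfd2, which rose in both comparisons, had no match in their windows (that of Mthfd2 begins at a shorter transcript). The 250 bases before the start are shown for Tars (a synthetase that rose and has a match), Asns (a match and no call on day 6) and Shmt2 (a rise and no match), read along each gene's own strand, here minus for all of them. Capitals mark the match, which in Tars reads as its reverse complement.
Tars, chr15:11399659-11399908: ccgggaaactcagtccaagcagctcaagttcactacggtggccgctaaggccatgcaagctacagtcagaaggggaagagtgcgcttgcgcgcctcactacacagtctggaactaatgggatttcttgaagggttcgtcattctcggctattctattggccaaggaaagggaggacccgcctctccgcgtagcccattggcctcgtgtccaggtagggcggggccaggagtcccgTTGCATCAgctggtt
Asns, chr6:7693210-7693459: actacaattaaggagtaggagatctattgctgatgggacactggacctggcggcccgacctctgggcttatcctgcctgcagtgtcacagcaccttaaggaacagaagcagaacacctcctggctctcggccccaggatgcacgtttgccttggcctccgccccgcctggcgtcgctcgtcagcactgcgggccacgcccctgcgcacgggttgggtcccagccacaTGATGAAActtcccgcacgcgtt
Shmt2, chr10:127522445-127522694: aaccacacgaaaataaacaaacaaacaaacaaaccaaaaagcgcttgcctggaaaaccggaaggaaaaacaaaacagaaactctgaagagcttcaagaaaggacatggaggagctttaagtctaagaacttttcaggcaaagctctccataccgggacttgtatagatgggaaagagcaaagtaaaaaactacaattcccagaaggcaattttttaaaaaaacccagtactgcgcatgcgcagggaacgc

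On day 6, 19 of the 20 synthetase mRNAs had a higher mean with 5-FU than with PBS, both after 1 and after 3 administrations, and none fell. After 1 administration 9 of 20 synthetases passed the test as higher, and after 3 administrations 12 of 20 did. Their median log2 difference was 0.30 after 1 and 0.32 after 3, against -0.00 and -0.01 for all genes tested. Of all 34 members tested, 16 rose and 1 fell after 1 administration, where 11.5% of all 12759 genes rose and 10.6% fell. After 3 administrations 16 rose and 2 fell, where 9.84% of 12729 genes rose and 8.3% fell. Calls rest on an adjusted p under 0.05 in edgeR's quasi-likelihood test over all genes. These counts depended on single libraries: after 1 administration the 17 calls (22.2% of all genes were called in either direction) became 9 without replicate 2 of the 5-FU group, 10 without replicate 3 of the PBS group and 11 without replicate 3 of the 5-FU group or replicates 1 or 2 of the PBS group. After 3 administrations the 18 calls (18.1% of all genes) became 11 without replicate 3 of the 5-FU group. Calls over all genes fell in these fits too. Without replicate 2 of the 5-FU group after 1 administration they went from 2827 of 12759 genes to 1563 of 13048. Without replicate 3 of the 5-FU group after 3 administrations they went from 2310 of 12729 to 1231 of 13028. The 8 calls that held under every alternative tried after 1 administration were those of Aars, Cars, Nars, Sars, Tars, Mthfd2, Shmt2 and Slc7a5. After 3 administrations 11 held, those of Aars, Cars, Kars, Mars1, Tars, Mthfd2, Psat1, Shmt2, Slc7a5, Ddit3 and Trib3.

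**Figure D1:**
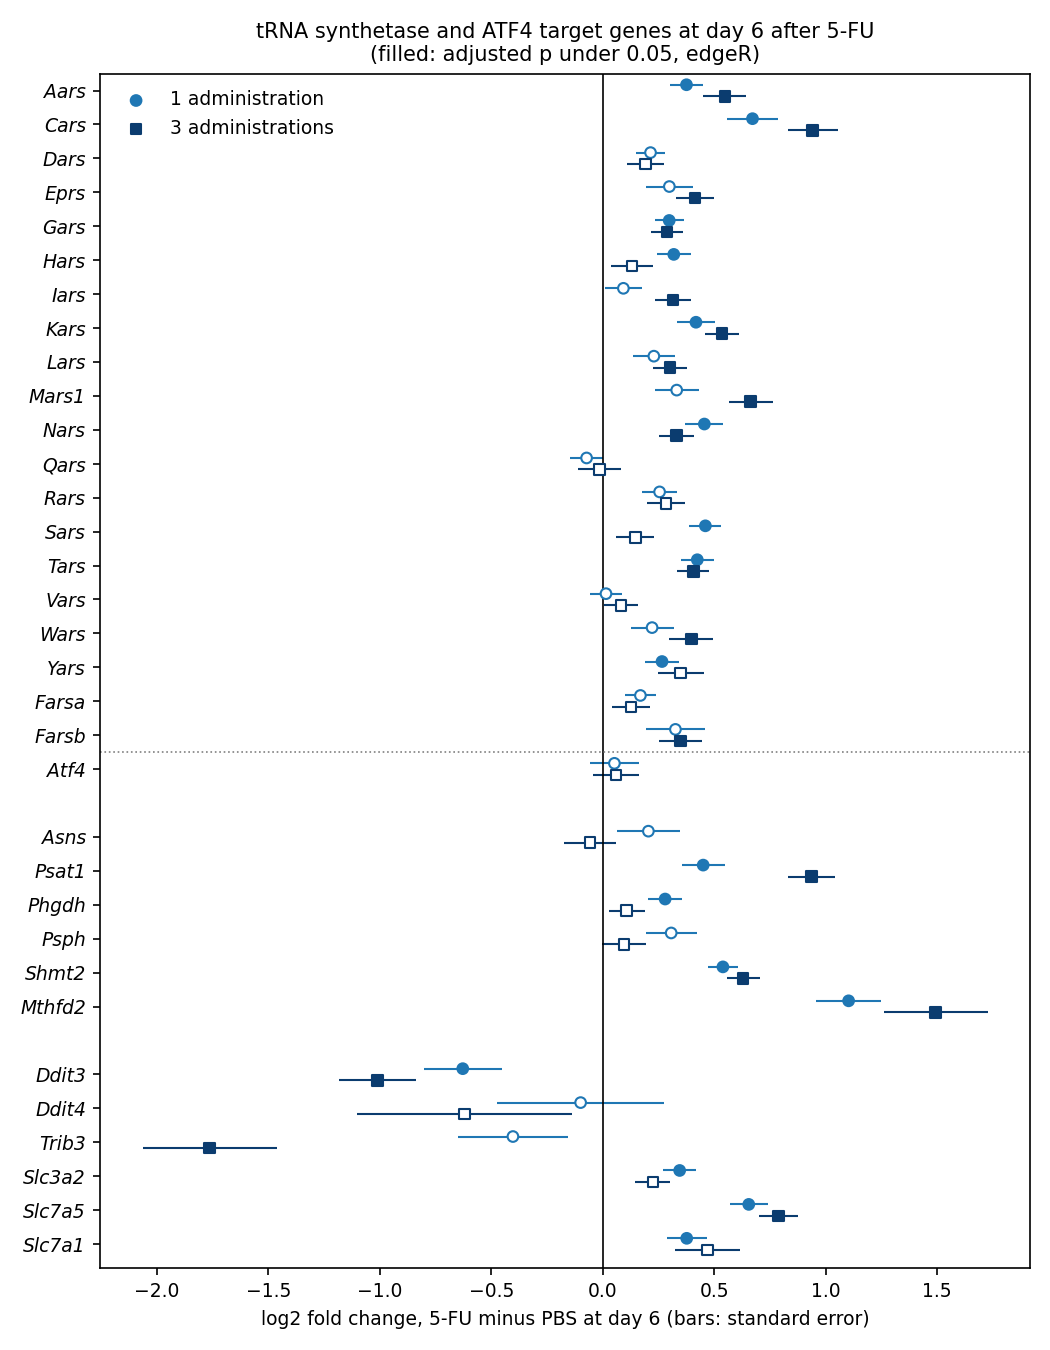
Log2 fold change of 5-FU-treated over PBS-treated HSCs on day 6 (x axis) for 33 members (y axis), after 1 administration (circles) and 3 administrations (squares), with standard errors as bars and filled symbols for an adjusted p under 0.05 in edgeR. The synthetases above the dotted line lie mostly right of 0, Mthfd2 lies farthest right (1.10 and 1.49), and Ddit3 and Trib3 lie left. Atf5 (not tested) and Chac1 (near the detection limit) are left out.

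The cysteine enzyme Cars had the largest difference among synthetases in both comparisons. It stood at 52.4, 46.0 and 47.1 CPM in the PBS libraries and at 74.8, 87.7 and 67.4 CPM in the 5-FU libraries after 1 administration. After 3 administrations it stood at 49.5, 38.1 and 44.6 CPM with PBS and at 83.6, 81.5 and 89.8 CPM with 5-FU. The libraries of the treatments did not overlap, where 22.3% of all genes after 1 and 21.2% after 3 had every 5-FU library above every PBS library. These shares apply to each rise without overlap described below. The log2 fold change of Cars was 0.67 ± 0.11 (SE, edgeR adjusted p = 0.00809) after 1 and 0.94 ± 0.11 (edgeR adjusted p = 0.00371) after 3. Kars, the most abundant synthetase, was at 550, 619 and 534 CPM with PBS and at 687, 821 and 750 CPM with 5-FU after 1 administration. After 3 it was at 572, 592 and 566 CPM with PBS and at 832, 771 and 913 CPM with 5-FU. All 6 libraries of 5-FU-treated HSCs were thus above the 6 PBS libraries for Kars, with log2 fold changes of 0.42 ± 0.09 (edgeR adjusted p = 0.0163) and 0.54 ± 0.08 (edgeR adjusted p = 0.0062). The call of Kars after 1 administration was lost without replicate 1 or replicate 3 of the PBS group (adjusted p 0.0506 and 0.0525).

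The alanine enzyme Aars rose from 36.0 ± 0.826 to 46.3 ± 2.48 CPM (SD, n = 3) after 1 administration and from 35.7 ± 3.46 to 52.4 ± 2.75 CPM after 3. Tars rose from 30.6 ± 0.748 to 40.8 ± 2.12 CPM and from 31.0 ± 0.456 to 41.2 ± 1.23 CPM, with log2 fold changes of 0.42 and 0.41 (edgeR adjusted p = 0.00942 and 0.0113). The glycine enzyme Gars rose from 42.4 to 51.7 CPM and from 41.1 to 50.4 CPM. Nars rose from 517 to 704 CPM and from 597 to 754 CPM. The call of Gars was lost after 1 administration without replicate 1 of the PBS group or any 1 library of the 5-FU group, and after 3 on leaving out any 1 of the 6 libraries. That of Nars was lost after 3 without replicates 1 or 3 of the 5-FU group or replicates 1 or 2 of the PBS group. These genes, with Cars and Kars, are the 6 synthetases that rose in both comparisons. The 2 comparisons share no library.

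A further 3 synthetases passed the test only after 1 administration: the histidine enzyme Hars (log2 fold change 0.32, and 0.13 after 3), the serine enzyme Sars (0.46, and 0.15 after 3) and the tyrosine enzyme Yars (0.27, and 0.35 after 3). Another 6 passed it only after 3 administrations. These were the methionine enzyme Mars1 (0.33 after 1 and 0.66 after 3), the bifunctional glutamate and proline enzyme Eprs (0.30 and 0.41), Wars (0.22 and 0.40), the beta subunit of the phenylalanine enzyme Farsb (0.33 and 0.35), the isoleucine enzyme Iars (0.09 and 0.31) and the leucine enzyme Lars (0.23 and 0.30). After 1 administration the calls of Hars and Yars were lost in 6 and 9 of 12 alternatives. After 3, those of Eprs, Wars, Farsb, Iars and Lars were lost in 3, 4, 7, 7 and 7 of 12. A call in only 1 of the comparisons does not show a difference between them, and the test of that difference is given below. Mars1 stood at 133, 140 and 117 CPM with PBS and at 148, 180 and 160 CPM with 5-FU after 1 administration. After 3 it stood at 131, 137 and 121 CPM with PBS and at 201, 187 and 230 CPM with 5-FU. Its groups did not overlap in either comparison, as for 22.3% of all genes after 1 and 21.2% after 3. The edgeR adjusted p of Mars1 was 0.051 after 1 and 0.00692 after 3.

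The remaining 5 synthetases were called in neither comparison. For the valine enzyme Vars the levels were 112, 112 and 125 CPM with PBS and 118, 114 and 118 CPM with 5-FU after 1 administration, and the groups overlapped (log2 fold change 0.01 ± 0.07, and 0.08 ± 0.08 after 3). The glutamine enzyme Qars was the only synthetase with a fold change below 0 in both comparisons (-0.07 ± 0.07 and -0.01 ± 0.10). The arginine enzyme Rars, the aspartate enzyme Dars and the alpha subunit of the phenylalanine enzyme Farsa lay between 0.13 and 0.28. The libraries did not overlap between treatments for any of these 3 genes, where 22.3% of all genes tested after 1 and 21.2% after 3 had every 5-FU library above every PBS library.

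The 8 synthetase genes whose products belong to the multisynthetase complex (Eprs, Iars, Lars, Mars1, Qars, Rars, Kars and Dars, a list drawn up after results of these data were known) had a median log2 fold change of 0.24 after 1 administration, with 1 of 8 called, and of 0.31 after 3, with 5 of 8 called. The other 12 synthetases had medians of 0.32 and 0.34, with 8 of 12 and 7 of 12 called. By catalytic class, 2 of 9 class I enzymes and 7 of 10 class II enzymes rose after 1 administration, and 5 of 9 and 6 of 10 after 3, where 11.5% and 9.84% of all genes rose (Eprs has a domain of each class and is in neither count). Differences between these subsets were not tested.

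The mRNA of Atf4 itself did not pass the test. It was at 83.1, 76.3 and 93.9 CPM with PBS and 79.3, 84.7 and 96.5 CPM with 5-FU after 1 administration, and at 86.0, 68.7 and 76.1 CPM with PBS and 81.0, 84.9 and 75.5 CPM with 5-FU after 3. The groups overlapped in both comparisons, with log2 fold changes of 0.05 ± 0.11 (edgeR adjusted p = 0.763) and 0.06 ± 0.10 (edgeR adjusted p = 0.732). Atf5 was too low to be tested. Of the 14 genes tested in the ATF4 list, 7 rose and 1 fell after 1 administration (median log2 difference 0.29), and 4 rose and 2 fell after 3 (median 0.17). Of all genes, 11.5% rose and 10.6% fell after 1, and 9.84% rose and 8.3% fell after 3. The counts by role below stand beside the same shares.

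Both mitochondrial folate enzymes rose, and Mthfd2 rose by more than any other member that was called. Mthfd2, a mitochondrial dehydrogenase and cyclohydrolase that is low in most adult tissues, was at 7.81, 6.70 and 6.46 CPM with PBS and at 12.7, 16.2 and 15.8 CPM with 5-FU after 1 administration. After 3 it was at 6.26, 4.37 and 8.25 CPM with PBS and at 15.6, 20.0 and 17.7 CPM with 5-FU. Every 5-FU library was above every PBS library, a 2.15-fold difference after 1 (log2 1.10 ± 0.15, edgeR adjusted p = 0.00375) and a 2.81-fold difference after 3 (log2 1.49 ± 0.23, edgeR adjusted p = 0.00785). Shmt2, which feeds the same pathway from serine, was at 171, 163 and 158 CPM with PBS and 225, 249 and 234 CPM with 5-FU after 1 administration. After 3 it was at 173, 156 and 165 CPM with PBS and 252, 246 and 268 CPM with 5-FU. Its groups did not overlap, and it rose by 0.54 ± 0.07 (edgeR adjusted p = 0.00351) and 0.63 ± 0.07 (edgeR adjusted p = 0.00371) on the log2 scale.

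Of the 3 enzymes of serine synthesis, 2 rose after 1 administration and 1 rose after 3. Psat1, the aminotransferase of the second step, was at 114, 93.4 and 94.9 CPM with PBS and 135, 145 and 131 CPM with 5-FU after 1 administration. After 3 it was at 111, 87.0 and 91.5 CPM with PBS and at 192, 179 and 184 CPM with 5-FU, and the groups did not overlap in either comparison. Psat1 rose by 0.45 ± 0.10 (edgeR adjusted p = 0.0184) after 1 and by 0.94 ± 0.11 (edgeR adjusted p = 0.00322) after 3. After 1 administration this call was lost without replicate 2 of the 5-FU group or replicates 2 or 3 of the PBS group (adjusted p 0.0568 to 0.0593). Phgdh, which makes the first step, rose after 1 (0.28 ± 0.08, edgeR adjusted p = 0.0406) and not after 3 (0.11 ± 0.08, edgeR adjusted p = 0.403). The call of Phgdh after 1 was lost in 6 of 12 alternatives. Psph, the last step, was called in neither comparison (0.31 ± 0.11 and 0.09 ± 0.10). Asns, asparagine synthetase and a classical ATF4 target, was at 14, 15.6 and 17.2 CPM with PBS and 15.3, 20.8 and 17.3 CPM with 5-FU after 1 administration, with overlapping groups (0.20 ± 0.14). After 3 administrations its log2 fold change was -0.06 ± 0.12.

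Of the 3 amino acid transporter genes, 3 rose after 1 administration and 1 rose after 3. Slc7a5, the light chain that carries leucine and other large neutral amino acids, was at 24.3, 22 and 23.6 CPM with PBS and 34.2, 36.5 and 38.4 CPM with 5-FU after 1 administration. After 3 it was at 24.4, 24.2 and 24.0 CPM with PBS and 37.9, 42.5 and 45.2 CPM with 5-FU. The groups did not overlap, and the log2 fold changes were 0.66 ± 0.08 (edgeR adjusted p = 0.00357) and 0.79 ± 0.09 (edgeR adjusted p = 0.00322). Its partner Slc3a2 rose from 118 ± 8.75 to 148 ± 3.67 CPM after 1 administration (0.35 ± 0.07, edgeR adjusted p = 0.0176) and was at 129 ± 3.18 and 151 ± 10.0 CPM after 3 (0.22 ± 0.08, edgeR adjusted p = 0.0911). Slc7a1, a carrier of arginine and lysine, rose after 1 (0.38 ± 0.09, edgeR adjusted p = 0.0256) and had a fold change of 0.47 ± 0.14 (edgeR adjusted p = 0.0654) after 3. For both genes every 5-FU library was above every PBS library in both comparisons, as for 22.3% of all genes after 1 and 21.2% after 3. After 1 administration the calls of Slc3a2 and Slc7a1 were lost in 4 and 6 of 12 alternatives.

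**Figure D2:**
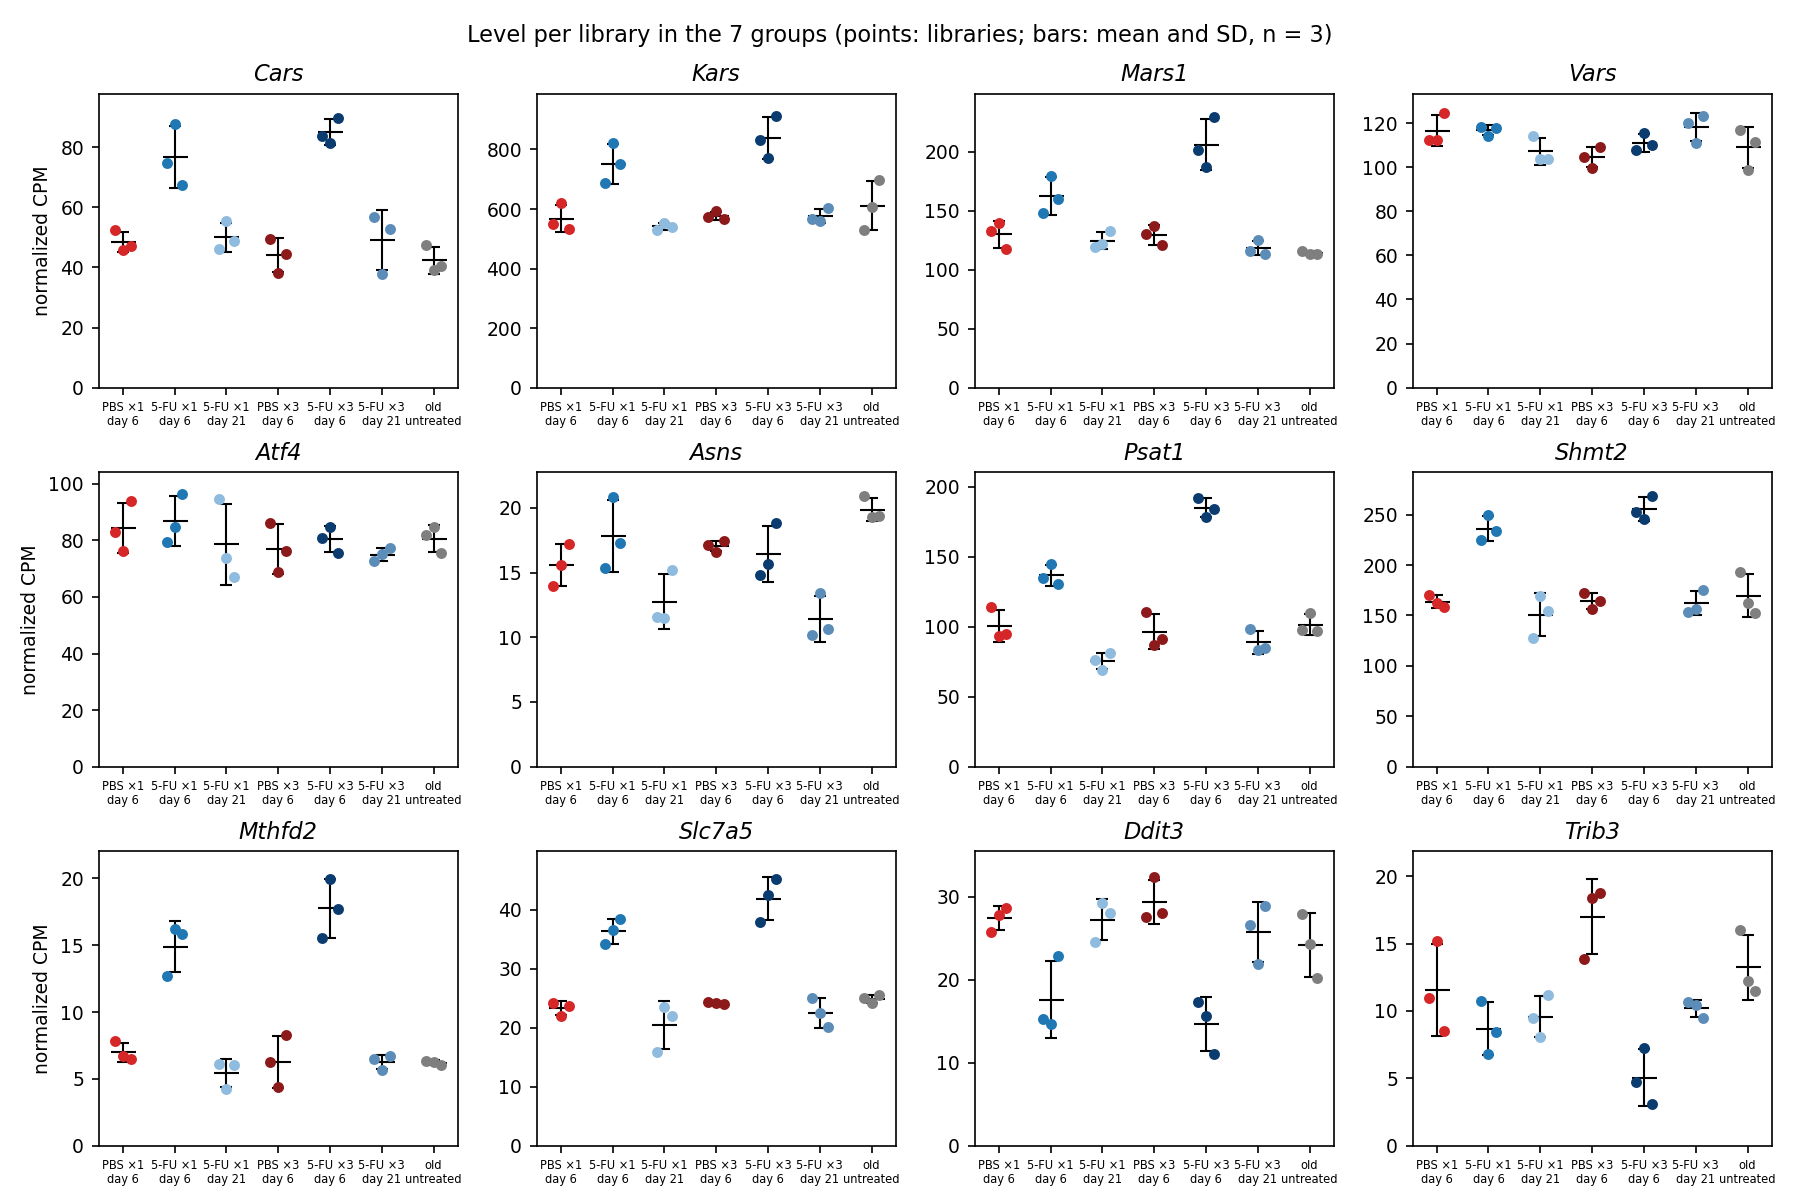
Normalized CPM (y axis, from 0) of 12 members in each library of the 7 groups (x axis), with group mean and SD as bars (n = 3). In the panels of Cars, Kars, Psat1, Shmt2, Mthfd2 and Slc7a5 the day 6 5-FU libraries lie above the PBS libraries of the same number of injections and day 21 lies back near PBS, the PBS and 5-FU libraries overlap for Atf4 and Vars, and Ddit3 and, after 3 administrations, Trib3 are lower on day 6.

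Among the 4 stress effectors of the pathway none rose, 1 fell after 1 administration and 2 fell after 3. Ddit3 encodes CHOP, a pro-apoptotic factor of the unfolded protein response. It was at 25.8, 27.9 and 28.6 CPM with PBS and 15.2, 14.7 and 22.9 CPM with 5-FU after 1 administration. After 3 administrations it was at 27.6, 32.4 and 28.1 CPM with PBS and 17.3, 15.6 and 11.0 CPM with 5-FU. The groups did not overlap in either comparison, where 21.4% of all genes after 1 and 18.7% after 3 had every 5-FU library below every PBS library. It fell by 0.63 ± 0.17 (edgeR adjusted p = 0.0416) after 1 and by 1.01 ± 0.17 (edgeR adjusted p = 0.0102) after 3 on the log2 scale. The call after 1 administration was lost on leaving out any 1 library other than replicate 3 of the 5-FU group (adjusted p 0.0722 to 0.119), while the call after 3 held in all 12 alternatives tried. Ddit3 overlaps the end of Mars1, whose level was higher after 5-FU.

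Trib3, a pseudokinase that is induced by ATF4 and CHOP and dampens them, was at 13.8, 18.4 and 18.8 CPM with PBS and at 4.72, 7.28 and 3.13 CPM with 5-FU after 3 administrations. These groups did not overlap, and Trib3 fell by 1.76 ± 0.30 on the log2 scale (edgeR adjusted p = 0.0101). After 1 administration it was at 11.0, 15.2 and 8.48 CPM with PBS and 10.8, 6.84 and 8.45 CPM with 5-FU, which overlapped (-0.40 ± 0.25, edgeR adjusted p = 0.278). The level with PBS was itself 17 ± 2.75 CPM after 3 injections and 11.6 ± 3.40 CPM after 1. Ddit4 (-0.10 ± 0.37 and -0.62 ± 0.48) and Chac1 were not called, and their low counts leave wide errors.

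The difference between the effects of 3 and 1 administrations was tested as an interaction over the 12 day 6 libraries, and no member passed (edgeR, 0 of 35 tested, against 0.65% of 13227 genes). At an unadjusted p under 0.05 there were 4 members: Psat1 (interaction 0.50 ± 0.15, edgeR adjusted p = 0.133), Trib3 (-1.35 ± 0.42, edgeR adjusted p = 0.16), Sars (-0.30 ± 0.10, edgeR adjusted p = 0.2) and Mars1 (0.35 ± 0.14, edgeR adjusted p = 0.292). DESeq2 called 1 member, Psat1, and 715 of all 13227 genes. In edgeR with size factors by relative log expression, 1942 of 13227 genes were at an unadjusted p under 0.05 in the interaction. Across the 34 members tested in both comparisons, 32 had the same sign after 1 and after 3 administrations.

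**Figure D3:**
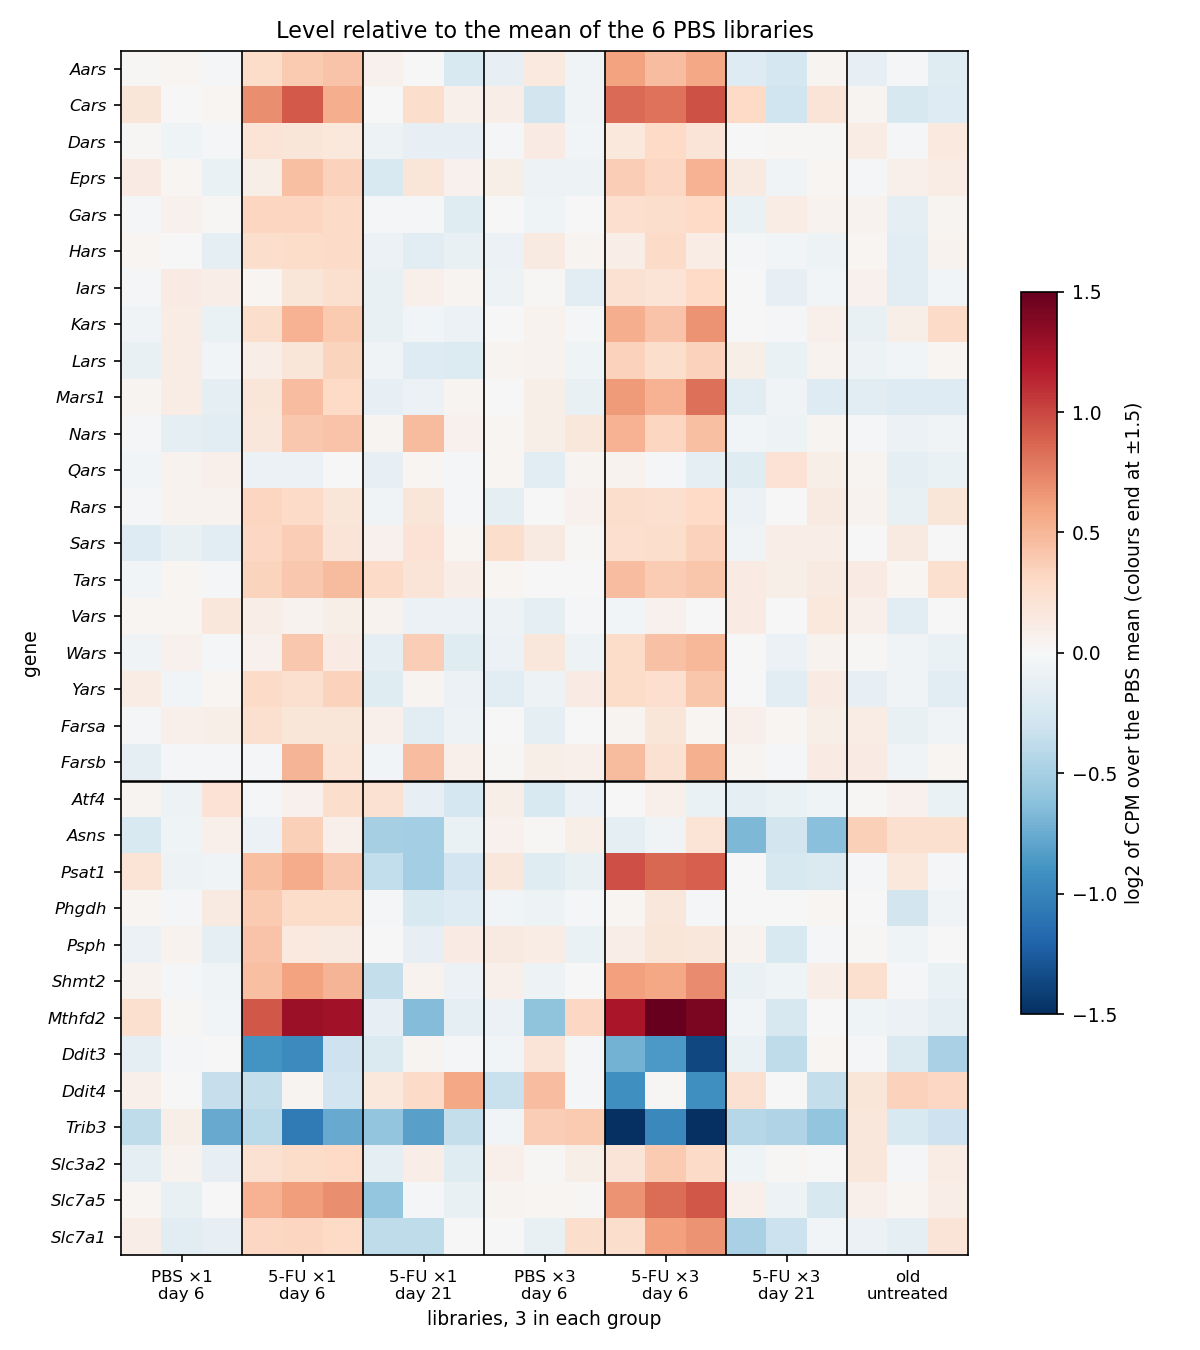
Log2 of each library's CPM over the mean of the 6 PBS libraries (colour) for 33 members (rows) in the 21 libraries (columns, 3 per group). The day 6 columns after 5-FU are red for most rows, blue for Ddit3 and Trib3 and pale for Atf4, Qars and Vars, and the day 21 and old columns are pale for most rows. Atf5 and Chac1 are left out for low counts.

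Counted over all groups, 13 of the 35 members had all 6 libraries of 5-FU-treated HSCs on day 6 above the 15 other libraries, where 5.6% of 13571 genes did. These were Aars, Cars, Dars, Gars, Mars1, Tars, Yars, Psat1, Shmt2, Mthfd2, Slc3a2, Slc7a5 and Slc7a1. No member had all 6 below the others, where 2.84% of genes did. The summed level of the 20 synthetases was 2960 to 3463 CPM and 3317 to 3683 CPM in the day 6 libraries after 1 and 3 administrations, and 2475 to 2965 CPM in the 15 other libraries. The highest of those others, at 2965 CPM, was a day 21 library after 1 administration (replicate 2), so the sums overlap by 1 library. The sum of the 15 ATF4 genes was 828 to 929 CPM in the 6 day 6 libraries and 589 to 728 CPM in the 15 others, without overlap.

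**Figure D4:**
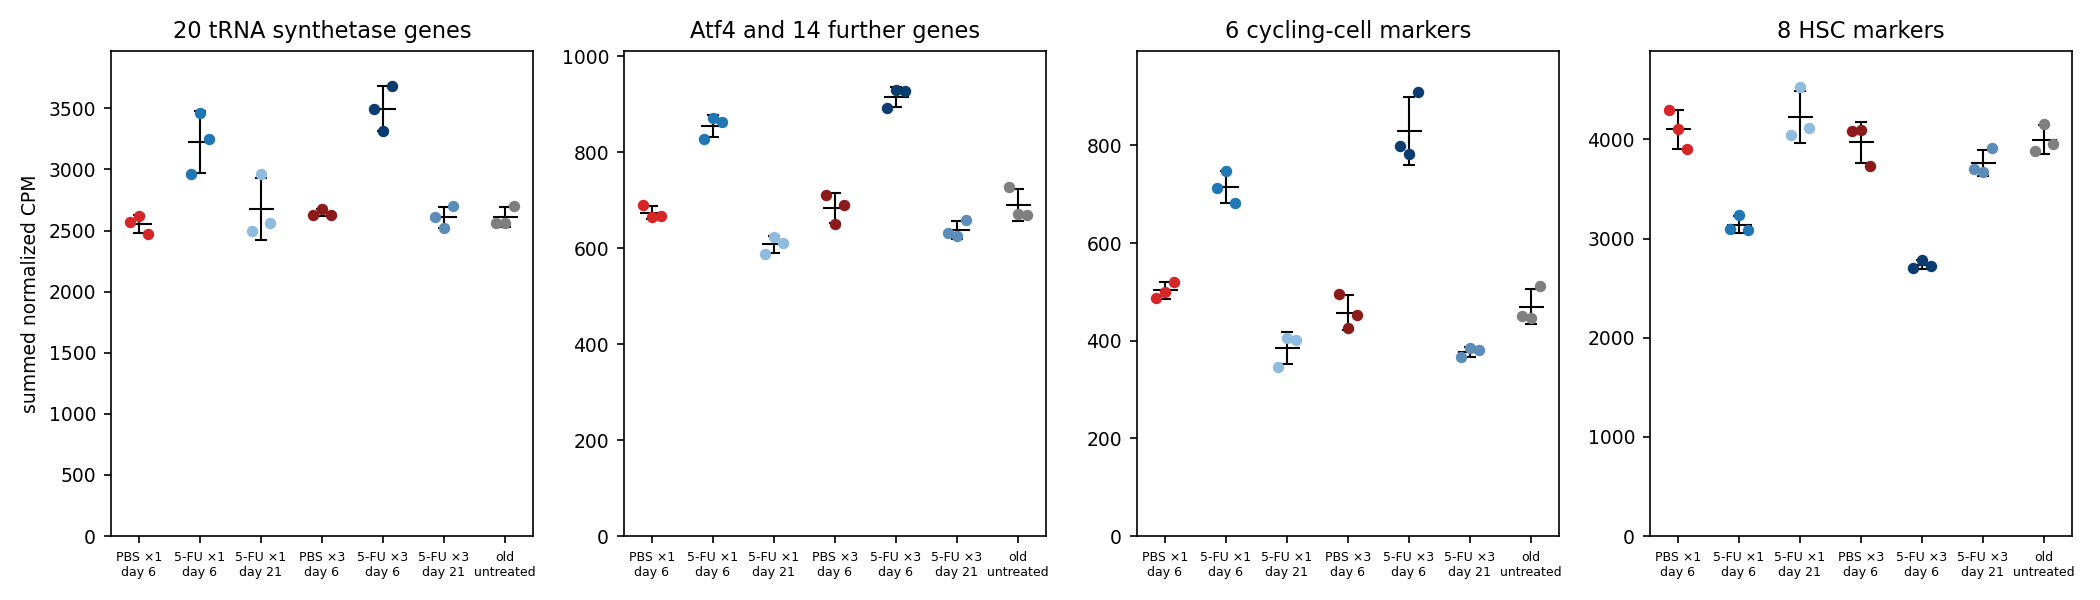
Summed normalized CPM (y axis, from 0) of the synthetases, the ATF4 genes, 6 cycling-cell markers and 8 HSC markers in each library of the 7 groups (x axis), with mean and SD (n = 3). The first 3 sums are higher on day 6 after 5-FU than in the PBS groups and the HSC marker sum is lower, and all of them lie nearer the PBS groups at day 21.

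At day 21 after 5-FU, most members had a lower mean than on day 6. Compared with day 6, 16 of 33 members fell and 1 rose after 1 administration, where 13.7% of all genes fell and 12.3% rose. After 3 administrations 18 of 34 members fell and 1 rose, where 10.8% of all genes fell and 8.68% rose. Without replicate 2 of the day 6 group the first count of 17 calls (26% of all genes were called in either direction) became 8, and without replicate 3 it became 11. The second, of 19 calls (19.5% of all genes), became 11 without replicate 3 of day 21 and 12 without replicate 1 of day 21 or replicates 1 or 3 of day 6. Calls over all genes fell in these fits too. After 1 administration they went from 3272 of 12589 genes to 1736 of 12817 without replicate 2 of day 6. After 3 they went from 2450 of 12553 to 1714 of 12890 without replicate 3 of day 21. In both comparisons of day 21 with day 6 the member that rose was Ddit3, from 17.6 to 27.3 CPM and from 14.7 to 25.8 CPM. Its call was lost in 5 of 6 fits without 1 library after 1 administration (adjusted p up to 0.132) and in 3 of 6 after 3 (adjusted p up to 0.0708). Both falls and the earlier rises use the same day 6 libraries, so they are not independent of each other, and the wider gate of day 6 cannot be told apart from the time.

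The 11 members that fell from day 6 to day 21 both after 1 and after 3 administrations were Aars, Cars, Kars, Lars, Mars1, Psat1, Shmt2, Mthfd2, Slc3a2, Slc7a5 and Slc7a1. Of these, Cars, Kars, Psat1, Shmt2, Mthfd2 and Slc7a5 passed under all 12 alternatives in both comparisons. The calls of Lars were lost in 5 of 12 after 1 and 8 of 12 after 3, those of Slc3a2 in 6 of 12 in each, and those of Aars and Mars1 in 4 of 12 after 1. Mthfd2 was at 6.08, 4.23 and 6.05 CPM at day 21 after 1 administration and at 6.46, 5.64 and 6.69 CPM after 3. It fell by 1.47 ± 0.19 (edgeR adjusted p = 0.00307) and by 1.51 ± 0.14 (edgeR adjusted p = 0.00115) on the log2 scale, and its day 21 libraries all lay below the lowest day 6 library, at 12.7 CPM, where 24.1% of all genes after 1 and 20.7% after 3 had every day 21 library below every day 6 library of the same number of administrations. Psat1 fell by 0.87 ± 0.09 (edgeR adjusted p = 0.00151) and by 1.07 ± 0.09 (edgeR adjusted p = 0.00109), Slc7a5 by 0.84 ± 0.15 and 0.91 ± 0.12, and Cars by 0.63 ± 0.12 and 0.80 ± 0.15. Asns, which was not called on day 6, fell after 3 administrations (-0.54 ± 0.15, edgeR adjusted p = 0.0491) to 10.2, 13.4 and 10.6 CPM, a call lost in 8 of 12 alternatives (adjusted p up to 0.141). Trib3 had a log2 difference of 1.01 ± 0.30 from day 6 to day 21 after 3 administrations (edgeR adjusted p = 0.0525).

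Compared with the PBS groups, no member was called at day 21. After 1 administration 0 of 33 members passed in edgeR, where 0.221% of all genes did, with 3 members at an unadjusted p under 0.05 and 2 called by DESeq2. Of these, Psat1 was at 76.2, 69.3 and 80.9 CPM at day 21, below each of the PBS libraries as 10.8% of all genes were (-0.42 ± 0.11, edgeR adjusted p = 0.175). Sars and Nars were higher by 0.26 ± 0.08 (edgeR adjusted p = 0.245) and 0.32 ± 0.12 (edgeR adjusted p = 0.325). DESeq2 called Psat1 and Sars, where it called 725 of all 12647 genes tested. With size factors by relative log expression, edgeR had 1721 of these 12647 genes at an unadjusted p under 0.05. After 3 administrations 0 of 33 passed in edgeR, where 0.0475% of all genes did, with 2 members at an unadjusted p under 0.05, which were the 2 called by DESeq2. These were Asns (-0.58 ± 0.13, edgeR adjusted p = 0.158), at 10.2, 13.4 and 10.6 CPM against 17.1, 16.6 and 17.4 CPM with PBS, and Trib3 (-0.74 ± 0.15, edgeR adjusted p = 0.137), at 10.6, 10.4 and 9.50 CPM against 13.8, 18.4 and 18.8 CPM. For both genes every day 21 library was below every PBS library, as for 10.4% of all genes. Here DESeq2 called 592 of 12632 genes. In edgeR with size factors by relative log expression, 1719 of 12632 genes were at an unadjusted p under 0.05.

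Between 3 and 1 administrations at day 21, 0 of 33 members passed in edgeR (0.00802% of genes did), none at an unadjusted p under 0.05 and none in DESeq2. Of 12474 genes, DESeq2 called 161, and 744 were at that unadjusted p in edgeR with size factors by relative log expression. Between 3 and 1 injections of PBS, 0 of 33 passed in edgeR (0.0156% of genes did), with 3 at an unadjusted p under 0.05 and 1, Sars, called by DESeq2. Of 12806 genes, DESeq2 called 547, and 1637 were at that unadjusted p in edgeR with size factors by relative log expression. Sars was at 103, 110 and 106 CPM after 1 injection of PBS and at 142, 130 and 120 CPM after 3 (0.30 ± 0.08, edgeR adjusted p = 0.232). The columns of both day 6 groups after 1 injection carry a name suffix in the count table that the other groups lack and that no label explains, so the comparisons across it cannot be told apart from whatever it marks. The comparison of 5-FU with PBS after 1 administration lies within it.

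In aged HSCs no member was called. Against the PBS group with 3 injections, 0 of 33 members passed in edgeR (0.996% of genes did), with 1 member at an unadjusted p under 0.05 (Nars, -0.16 ± 0.07) and none called by DESeq2. Of 12847 genes, DESeq2 called 569, and 1429 were at that unadjusted p in edgeR with size factors by relative log expression. The median log2 difference was -0.03 over synthetases and 0.02 over the ATF4 genes. Mthfd2 was at 6.36, 6.26 and 6.03 CPM and Cars at 47.6, 39.1 and 40.5 CPM in the old libraries, within the range of the PBS libraries for both genes. Asns was at 20.9, 19.3 and 19.3 CPM, above all 3 of those PBS libraries as 8.03% of all genes were, with a log2 difference of 0.22 ± 0.10 (edgeR adjusted p = 0.469).

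Related genes of the same pathways were counted as further lists. Of all genes, 11.5% rose and 10.6% fell after 1 administration, and 9.84% rose and 8.3% fell after 3. Of 17 mitochondrial synthetases, 1 rose after 1 administration (Iars2, 0.27) and 2 after 3 (Tars2 and Sars2, both 0.43), and none fell. Among the 3 scaffold proteins of the multisynthetase complex, Aimp2 rose after 1 (0.47, edgeR adjusted p = 0.0113) and none was called after 3 (Aimp2 0.24). Of 15 genes of the eIF2alpha kinases and eIF2 control, 3 rose and 1 fell after 1 administration and 2 rose after 3. The beta subunit of eIF2, Eif2s2, rose in both (0.47 and 0.37), and Eif2b3, a subunit of its exchange factor, rose after 3 (0.46). Ppp1r15a, which directs the phosphatase of eIF2alpha and is itself an ATF4 target, fell after 1 (-0.69 ± 0.17, edgeR adjusted p = 0.0271) and was at -0.35 ± 0.15 after 3 (edgeR adjusted p = 0.155). No gene of the 4 eIF2alpha kinases was called, and Eif2ak4 (GCN2, which senses uncharged tRNA) had fold changes of -0.07 and 0.11.

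Of 21 further ATF4 targets and partners tested (of 25 on the list), 2 rose and 3 fell after 1 administration and 4 rose and none fell after 3. The shares of all genes were 11.5% and 10.6% after 1, and 9.84% and 8.3% after 3. Mthfd1l, the mitochondrial synthetase that follows Mthfd2 in the folate pathway, rose in both comparisons. It was at 113, 110 and 100 CPM with PBS and 145, 167 and 152 CPM with 5-FU after 1 (0.54 ± 0.08), and at 103, 98.7 and 109 CPM against 176, 176 and 196 CPM after 3 (0.82 ± 0.08, edgeR adjusted p = 0.00265). Slc7a11, the cystine transporter, rose after 3 administrations from 14.7 to 23.6 CPM (0.67 ± 0.12). Vldlr, a lipoprotein receptor, fell after 1 (-1.34 ± 0.22). Cbs, which makes cystathionine from serine and homocysteine, had 12 to 56 counts in the PBS libraries and 0 counts in each 5-FU library after 1 administration, which allows up to 3 counts per library. After 3 administrations it had 0 to 68 counts in the PBS libraries and 0 to 44 in the 5-FU libraries.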

How the data were processed

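RNA of sorted HSCs was amplified with SMART-Seq v4, which does not mark strand, and sequenced as single-end reads, per the study's methods. The authors aligned reads to mm10 with TopHat2 (2.0.13) and used Cufflinks (2.2.1). The deposited table holds raw read counts of 21000 genes in 21 libraries. The program that made these counts is not given in the sources used here. Levels are library-scaled counts (CPM, with TMM factors over the 21 libraries). Tests used edgeR 4.0.16 in R 4.3.3 (filterByExpr, TMM, quasi-likelihood F test, Benjamini-Hochberg over all genes kept, threshold 0.05) on the 6 libraries of each pair of groups, or on 12 for the interaction. Standard errors derive from the F statistic. Members and lists were chosen with earlier results of these data known. All 35 members are named. Of each other list, the called genes with the largest and second largest absolute fold change are named, and other genes were chosen after their values were seen. Transcript lengths and overlaps came from GENCODE vM21. The tests were checked on simulated data. The simulated counts were drawn with edgeR's own estimates of the spread, and 200 genes were changed 2-fold up or down. There DESeq2 made a larger share of false calls than edgeR and recovered more of the changed genes. EdgeR recovered fewer changed genes in the interaction than between a pair of groups. Alternatives were other size factors, DESeq2 1.42.0, other filters, 1 fit of 21 libraries, a replicate block and leaving out each library. P-values measure the spread between libraries of independent experiments. A marker gene and a promoter stretch are not reported here.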

Additional observations from a re-analysis of the deposited data

Results flagged for a closer look

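The difference of the day 6 5-FU effect between 3 administrations and 1 passed for 1 gene of the member and pathway lists. This gene was Cebpb, which encodes the C/EBP beta partner of ATF4. With PBS it stood at 41.1, 45.1 and 48.6 CPM after 1 injection and at 57.7, 63.3 and 62.8 CPM after 3. With 5-FU it stood at 78.1, 85.9 and 88.5 CPM after 1 and at 46.6, 65.7 and 63.3 CPM after 3. It rose after 1 administration (0.92 ± 0.09, edgeR adjusted p = 0.0017) and had a fold change of -0.07 ± 0.14 after 3 (edgeR adjusted p = 0.757). The interaction was -0.98 ± 0.17 (edgeR adjusted p = 0.031), on the log2 scale as 3 administrations minus 1. Among the cell type markers tested, 2 of 8 HSC markers and 1 of 4 erythroid markers passed with a negative interaction. Of the megakaryocyte markers 1 of 4 passed in the other direction. Of all 13227 genes tested, 0.65% passed.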

How the results depend on the processing

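No called member changed direction under any alternative. Leaving out each library in turn gave 9 to 13 called members on day 6 after 1 administration (17 with all libraries), 11 to 14 after 3 (18), 8 to 15 at day 21 against day 6 after 1 (17) and 11 to 14 after 3 (19). The other alternatives gave 13 to 22, 13 to 23, 15 to 23 and 16 to 26. Over all genes, the calls in these comparisons numbered 2827, 2310, 3272 and 2450 with all libraries. Leaving out each library gave 1563 to 1947, 1231 to 1582, 1736 to 2978 and 1351 to 1744 genes. The other alternatives gave 2041 to 3685, 1509 to 3364, 2652 to 4164 and 2071 to 3439 genes. Called members that passed under every alternative numbered 8, 11, 8 and 11, among them Cars, Mthfd2, Shmt2 and Slc7a5 in all of these comparisons. DESeq2 called 2 members at day 21 against PBS after 1 administration, 2 after 3, 1 between the PBS groups and 1 in the interaction, where edgeR called 0. Of all genes, DESeq2 called 725 of 12647, 592 of 12632, 547 of 12806 and 715 of 13227, in the same order. On simulated data the share of false calls was larger with DESeq2 than with edgeR. Those data were drawn with edgeR's own estimates of the spread and with 2-fold changes, so they cannot decide between the tools here. A single fit of 21 libraries called 1 member, Psat1, at day 21 against PBS after 1 administration, where it called 257 of 13571 genes. With size factors by relative log expression the summed CPM of the 35 members in the PBS group after 3 injections was 3343.8 in place of 3330.0. The replicate block lowered the 4 counts of called members to 13, 13, 15 and 16 and left the other counts at 0. It lowered the calls over all genes to 2041, 1509, 2652 and 2071. Same-numbered libraries did not deviate together (correlations -0.0597 to 0.0521), so the numbers were not taken to pair the samples, and a call lost under the block is not a weaker effect. The cause of these changes was not tested, beyond the fewer libraries when 1 is left out.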

Other observations

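Of 13 genes of the other branches of the unfolded protein response, 4 rose and 2 fell on day 6 after 1 administration, where 11.5% of all genes rose and 10.6% fell. After 3 administrations 2 rose and 2 fell, where 9.84% rose and 8.3% fell. Their median log2 differences were 0.21 and 0.13. Dnajb9, a chaperone partner induced by XBP1, fell after both 1 and 3 administrations (-0.51 ± 0.11 and -0.56 ± 0.13), and Ern1, the sensor IRE1 alpha, fell after 1 (-0.38 ± 0.08). Xbp1 rose after 1 (0.36 ± 0.10) and fell after 3 (-0.38 ± 0.10), and the test of this difference gave -0.72 ± 0.15 with an edgeR adjusted p of 0.0544. Hspa5, the main chaperone of the endoplasmic reticulum, rose in both comparisons (0.28 ± 0.07 and 0.32 ± 0.08). At day 21 against day 6, Hspa5 fell by 0.62 after 1 administration and by 0.34 after 3, and Dnajb9 rose by 0.76 and 0.62.

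In aged HSCs 1 of the 21 further ATF4 targets tested was called, where 0.996% of all genes were. This was Nupr1, a small stress-induced chromatin protein. It was at 17.2, 13.8 and 14.2 CPM in the old libraries and at 8.55, 8.83 and 8.75 CPM with PBS after 3 injections (0.79 ± 0.14, edgeR adjusted p = 0.0491). Every old library was above every PBS library, as for 8.03% of all genes. At day 21 after 3 administrations of 5-FU it was at 13.3, 12.4 and 11.9 CPM, above the day 6 libraries (0.64 ± 0.13). In that comparison 2551 of 12553 genes had every day 21 library above every day 6 library.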
